A study of Mus musculus with 6 samples.

Results

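The transcripts described here were those of 10 regulators of apoptosis from the BCL2 family: Bcl2, Bcl2l1 and Mcl1, which restrain cell death, Bax and Bak1, which carry it out, and the BH3-only genes Bbc3, Pmaip1, Bcl2l11, Bid and Bad, which trigger it. They were taken by gene symbol, not by any measured value, and all 10 were found among the 26214 genes listed in each count file. The cells were immortalized mouse brown preadipocytes, differentiated in culture with insulin, T3, IBMX, dexamethasone and indomethacin and kept until day 7, when they counted as mature heat-producing fat cells. On day 7 they received either 100 nM rotenone, an inhibitor of respiratory complex I, or its solvent DMSO for 16 h, and total RNA was sequenced. Both groups shared the cell line and the differentiation mix, and the labels do not say how many clones the line represents. The labels give 3 libraries per group, but the 3 rotenone files differed in 0 genes and were counted as 1 library, so every comparison set 3 DMSO libraries against 1 rotenone library.

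Proteins of the BCL2 family decide whether the mitochondrial outer membrane stays closed. BAX and BAK, the effectors, can open pores in it that release cytochrome c and start the caspase cascade; BCL2, BCL-xL (from Bcl2l1) and MCL1 hold them in check, and BH3-only proteins such as PUMA (Bbc3), NOXA (Pmaip1), BIM (Bcl2l11), BID and BAD bind these guardians or the effectors themselves. Much of their control lies in protein stability, phosphorylation, cleavage and splicing, none of which is visible in counts of reads per gene.

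Libraries held 26085061 to 29194179 counts with DMSO and 21611589 with rotenone, and intervals given for single libraries cover counting error only. Levels are in CPM, counts relative to library size after scaling by the trimmed mean of M-values (TMM). A gene was called higher or lower when its Benjamini-Hochberg adjusted p in edgeR's quasi-likelihood test, over all 14709 genes that entered it, was under 0.05; unless said otherwise, adjusted p-values below are of this kind. The lone rotenone library was assumed to vary like the DMSO libraries, whose biological coefficient of variation was 6.9%, and calls were also made with 20% assumed in its place. Of adipocyte markers, 0 of 8 were higher and 6 lower with rotenone, and their summed level was 9484 to 10548 CPM with DMSO and 8426 CPM with rotenone. Of the preadipocyte and fibroblast markers tested, 5 of 9 were higher and 1 lower (sum 1184 to 1327 CPM, then 2869 CPM, with Lum at 0 in the rotenone library), 3 of 5 smooth muscle markers were higher (sum 296 to 327 CPM, then 1557 CPM) and 4 of 5 proliferation markers were higher (sum 431 to 472 CPM, then 608 CPM). Macrophage markers summed to 2.6 to 3.57 CPM with DMSO and 15.7 CPM with rotenone, with Ptprc and Adgre1 at 0 in every library and Csf1r at 0 in the rotenone library, and endothelial markers to 2.04 to 2.94 CPM and 5.86 CPM, with Cdh5 at 0 in the rotenone library. Single genes carried these sums with rotenone, Cd68 with 15.5 CPM and Eng with 4.83 CPM, while Lyz2 stayed within its DMSO range. The part of these cell type markers in the results below was not tested, and in bulk RNA fewer cells of a type and less RNA per cell cannot be told apart.

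Of the 10 BCL2 family genes, 6 were called higher with rotenone (Bcl2, Bcl2l1, Mcl1, Bax, Pmaip1 and Bid), 1 was called lower (Bcl2l11) and 3 passed in neither direction (Bak1, Bbc3 and Bad). Among all genes tested, 27.6% were called higher and 28.5% lower. The median log2 fold change of the 10 genes was 0.37, against -0.04 for all genes tested. The rotenone library lay above every DMSO library for 8 of the genes and below every one for 2, but over all genes 41.5% lay above and 44.7% below, so that leaving the DMSO range was common. With a coefficient of variation of 20% assumed, Bcl2 and Pmaip1 were still called higher and Bcl2l11 lower, while 9.57% of all genes were called higher and 14.0% lower. All 10 genes reached the filter's cutoff of 0.368 CPM in at least 1 DMSO library, Pmaip1 only in DMSO replicate 2 among the DMSO libraries.

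**Figure D1:**
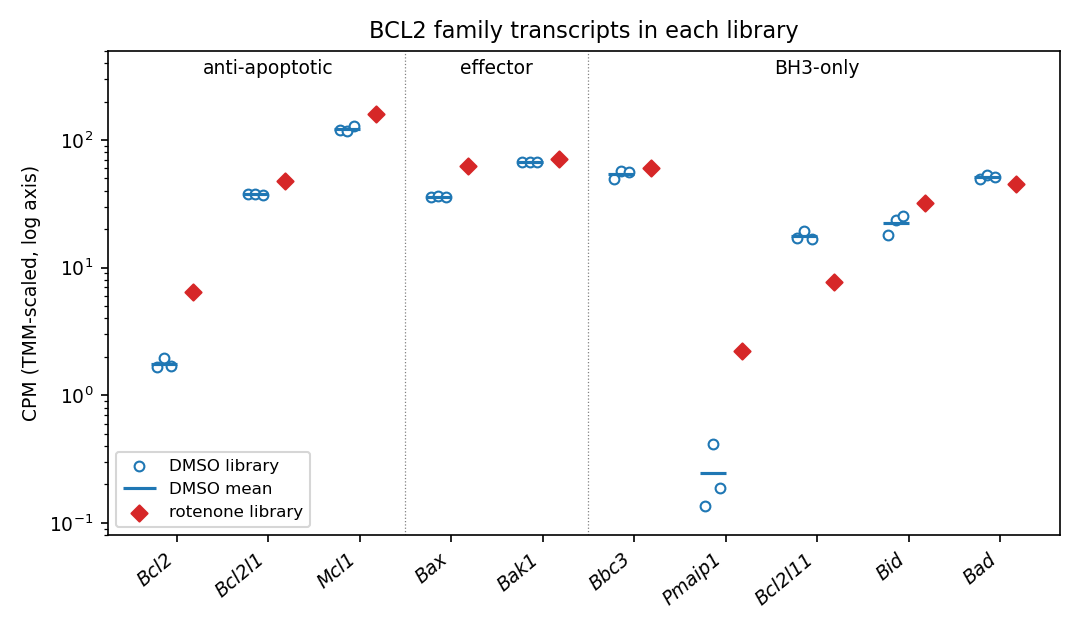
Level of each BCL2 family transcript in CPM on a log axis, with open circles for the 3 DMSO libraries, a bar for their mean and a red diamond for the single rotenone library; dotted lines separate the roles. Levels ran from under 1 CPM for Pmaip1 with DMSO to 160 CPM for Mcl1 with rotenone, and the diamond lies below the circles only for Bcl2l11 and Bad.

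The anti-apoptotic genes among the 10 were all higher with rotenone. Bcl2l2, an anti-apoptotic gene outside the 10, was called lower and is described further below. Mcl1, whose short-lived product guards many cell types against BAK, had the highest CPM of the 10 genes in every library. It is on chromosome 3, 95658788 to 95663176 (GRCm38, plus strand), and stood at 119, 117 and 128 CPM in DMSO replicates 1, 2 and 3 and at 160 CPM with rotenone. It rose by 0.39 ± 0.07 (log2 fold change ± SE, adjusted p = 0.000129), a 1.31-fold difference, and the rotenone value lay clear of the DMSO spread of 5.75 CPM (SD, n = 3). Bcl2l1 (chromosome 2, 152780668 to 152831728, minus strand) encodes BCL-xL and, by splicing, the shorter pro-apoptotic BCL-xS, which gene counts do not separate. Its level was 37.7, 37.8 and 37.2 CPM with DMSO and 47.8 CPM with rotenone, a rise of 0.35 ± 0.10 (adjusted p = 0.00438) that the DMSO libraries, within 1 CPM of one another, did not approach. The call for Bcl2l1 was lost with scaling by library size only (log2 fold change 0.23, adjusted p = 0.0508), and those for both Bcl2l1 and Mcl1 with 20% variation assumed (adjusted p = 0.486 and 0.412).

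Bcl2, the founding member of the family, was scarce in these cells and showed the largest rise among the guardians. The gene spans chromosome 1, 106538178 to 106714274 (minus strand), and an antisense gene, D630008O14Rik, covers 6.09% of its exon bases. DMSO replicates 1, 2 and 3 held 49, 57 and 45 counts, or 1.65, 1.97 and 1.68 CPM, and the rotenone library 131 counts, or 6.45 CPM (95% Clopper-Pearson interval 5.4 to 7.66). The groups did not overlap, and the highest DMSO interval ended at 2.56 CPM. Bcl2 rose by 1.86 ± 0.29 on the log2 scale (adjusted p = 2.24e-05), or 3.64-fold, and remained called with 20% variation assumed (adjusted p = 5.91e-06). Per kilobase of exon it stood far below the other anti-apoptotic genes: the ratio of Bcl2 to Bcl2l1 was 0.0236 ± 0.0022 (SD, n = 3) with DMSO and 0.0676 with rotenone.

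The effectors parted: Bax rose and Bak1 did not pass the test. Bax (chromosome 7, 45461697 to 45466898, minus strand) was at 35.7, 36.6 and 35.9 CPM with DMSO and 62.8 CPM with rotenone, so the DMSO libraries lay within 1 CPM of one another and far below the treated one. Its log2 fold change was 0.80 ± 0.09 (adjusted p = 4.54e-07), 1.74-fold, and with 20% variation assumed it just missed the threshold (adjusted p = 0.0545). Bax has the shortest transcript of the family, 1100 bases, and short transcripts were higher in general in the rotenone library: the median log2 fold change was 0.24 in the shortest decile of genes and -0.27 in the longest decile. Bax also shares 12.2% of its exon bases with the gene model Gm45808 on the same strand, whose reads were not analysed here. After correction for transcript length and GC content Bax stood at 0.60 (adjusted p = 4.5e-05).

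Bak1 (chromosome 17, 27019810 to 27029009, minus strand), which sits on mitochondria in healthy cells, was at 67.2, 67.8 and 67.5 CPM with DMSO and 71.3 CPM with rotenone. Although the rotenone value lay above all 3 DMSO values, the log2 fold change was 0.08 ± 0.08 (adjusted p = 0.407; 95% interval -0.09 to 0.24), and its sign turned with scaling by library size only (-0.041) and with the length and GC correction (-0.037). Ggnbp1, which overlaps up to 18.2% of the Bak1 exon bases on the other strand, was low, at 2.32 ± 0.20 CPM (SD, n = 3) and 1.82 CPM. The ratio of Bax to Bak1 per kilobase of exon was 0.816 ± 0.0066 (SD, n = 3) with DMSO and 1.34 with rotenone. Bak1 thus exceeded Bax in each DMSO library and Bax exceeded Bak1 in the rotenone library; with the longest transcript as the length, Bax was the higher in both groups.

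The stretches before the Bax start site are shown because this gene rose and its window held matches. The letters matched are named here after p53 and hypoxia-inducible factor, and binding by either was not measured. The window held 1 p53 half-site. RefSeq windows on GRCm38.p6, from 250 bases before to 50 bases after each annotated start, were read for 9 of the 10 genes, in 15 windows. The capitals mark the match, both strands were searched, and the sequences run 5′ to 3′ on the minus strand of the gene, at chr7:45467064-45467123 for the p53 half-site and chr7:45466899-45466958 for the hypoxia element ACGTG.
Bax, p53 half-site: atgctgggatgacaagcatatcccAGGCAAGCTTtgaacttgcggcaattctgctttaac
Bax, hypoxia element: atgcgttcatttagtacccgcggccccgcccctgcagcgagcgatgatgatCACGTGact
The capitals of the second stretch hold the element once on each strand. A further such pair lies past the start site, at positions 35 to 40, and is not shown. A p53 half-site was present in 8.36% of 32851 windows of the same length and ACGTG in 19.6%, so both are common. Besides Bax, only Bbc3 among the genes read held ACGTG, and no other held the half-site.

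The BH3-only genes, the sensors of the family, moved apart from one another. Bcl2l11, which encodes BIM, a potent activator known to be induced by FOXO factors and by loss of growth factors, was the 1 gene that fell. It lies on chromosome 2, 128126038 to 128162547 (plus strand), and stood at 16.9, 19.4 and 16.8 CPM with DMSO and 7.69 CPM with rotenone (95% Clopper-Pearson interval 6.53 to 8.99). The rotenone interval ended below the lowest DMSO interval, which began at 15.3 CPM, and both cover counting error only. Bcl2l11 fell by 1.20 ± 0.17 on the log2 scale (adjusted p = 7.53e-06), a level 2.3-fold lower, and with 20% variation assumed it remained called (adjusted p = 0.0102). Relative to Mcl1, one of the guardians its product binds, it went per kilobase of exon from 0.0621 ± 0.0075 (SD, n = 3) to 0.0205.

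Pmaip1 encodes NOXA, a small protein that binds MCL1, and it was close to silent with DMSO. The gene is on chromosome 18, 66458533 to 66465565 (plus strand). DMSO replicates 1, 2 and 3 held 4, 12 and 5 counts, which is 0.135, 0.415 and 0.187 CPM, against 45 counts or 2.22 CPM with rotenone (95% Clopper-Pearson interval 1.62 to 2.97). The highest DMSO interval ended at 0.726 CPM, below that range. Pmaip1 rose by 3.15 ± 0.68 (adjusted p = 0.000662); the ratio of mean levels was 9.02. At these counts the size is imprecise, with a 95% interval of 1.71 to 4.58 on the log2 scale, and even with rotenone Pmaip1 had fewer CPM than any of the other 9 genes.

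Bid, which links death receptors to mitochondria once caspase-8 has cut it, rose by 0.52 ± 0.15 (adjusted p = 0.00856). Its levels were 18.2, 23.8 and 25.4 CPM in DMSO replicates 1, 2 and 3 and 32.2 CPM with rotenone. The DMSO libraries spread more for Bid than for any other of the 10 genes but Pmaip1, with a coefficient of variation of 16.9%, and DMSO replicate 1 was the low one. The call did not hold with 20% variation assumed (adjusted p = 0.258). Bid (chromosome 6, 120891930 to 120916853, minus strand) shares 17.7% of its exon bases with Bcl2l13 on the other strand. Bcl2l13 stood at 235 ± 5.4 CPM (SD, n = 3) and 259 CPM, and no source used here says whether the reads of the shared bases were told apart by strand.

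Bbc3 and Bad did not pass. Bbc3 (chromosome 7, 16308393 to 16318205, plus strand) encodes PUMA, a p53 target that binds all guardians, and was among the more abundant triggers at 49.5, 56.7 and 55.7 CPM with DMSO and 60.5 CPM with rotenone. Its log2 fold change was 0.17 ± 0.09 (adjusted p = 0.141; 95% interval -0.03 to 0.36); the rotenone library lay above all DMSO libraries, which spread by 3.91 CPM (SD, n = 3). Bad (chromosome 19, 6941861 to 6951899, plus strand), whose product is held inactive by 14-3-3 proteins while growth factor signals last, was at 49.4, 52.7 and 51.3 CPM with DMSO and 45.0 CPM with rotenone. It lay below all DMSO libraries, with a log2 fold change of -0.18 ± 0.09 (adjusted p = 0.0994; 95% interval -0.38 to 0.01). Bad was called lower with 3 alternatives: library size only (-0.31), upper quartile scaling (-0.23) and the length and GC correction (-0.35). Gpr137 overlaps 20.5% of the Bad exon bases on the other strand and was itself called lower, at 47.0 ± 2.4 CPM (SD, n = 3) and 38.5 CPM (adjusted p = 0.0201).

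**Figure D2:**
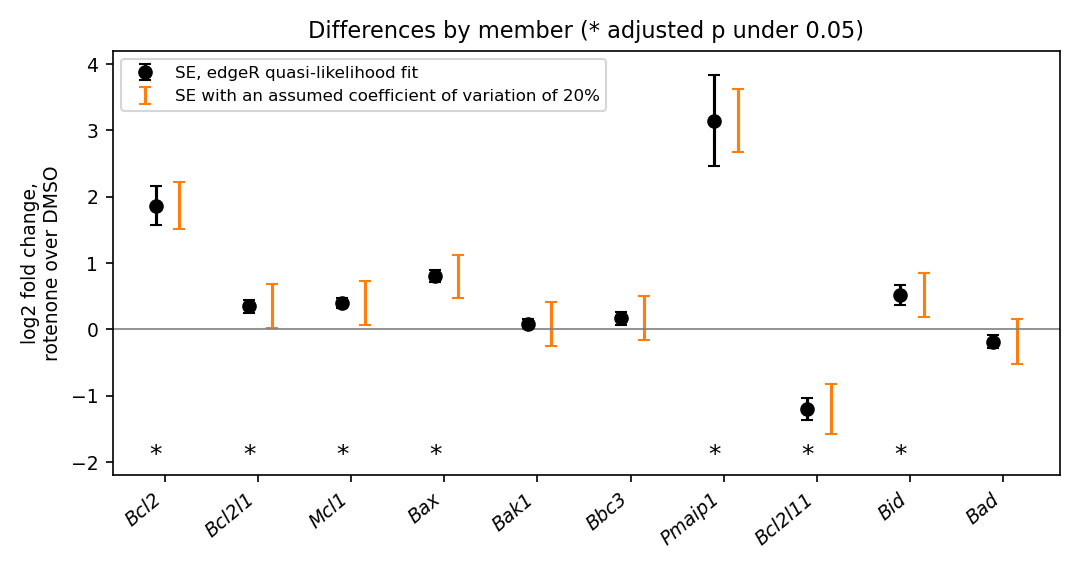
Log2 fold change of each gene, rotenone over DMSO, with black points and bars for the estimate ± SE of the edgeR fit and orange bars for ± SE with a coefficient of variation of 20% assumed; a star marks an adjusted p under 0.05. The values run from -1.20 for Bcl2l11 to 3.15 for Pmaip1, and the orange bars are wider than the black ones for every gene but Pmaip1.

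A match to the FOXO element TGTTTAC, held by 3.65% of all windows, was found in 2 of the 15 windows read, 1 of Bcl2l11 and 1 of Bbc3. They are shown side by side because Bcl2l11 fell and Bbc3 was not called. The matches lie at chr2:128125788-128125847 and chr7:16310067-16310126 (both plus strand, GRCm38.p6), where 0 annotated exons overlap, and capitals mark the element, which reads on the opposite strand in Bcl2l11.
Bcl2l11: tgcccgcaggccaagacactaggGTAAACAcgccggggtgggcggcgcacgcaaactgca
Bbc3: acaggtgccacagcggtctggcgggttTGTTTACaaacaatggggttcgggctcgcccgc
The element begins at position -227 from the Bcl2l11 start site and at -167 from the start site of the Bbc3 window concerned. The letters TGATGNAA, a core bound by ATF4 dimers, were in 3.97% of all windows and in 0 of the 15 read here. These are matches of letters only; no binding was measured.

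Levels of different genes can be set side by side only per length, here CPM per kilobase of the union of a gene's exons. With DMSO the order was Mcl1 (35.6 ± 1.7, SD, n = 3), Bak1 (28.0 ± 0.13), Bbc3 (25.4 ± 1.8), Bax (22.9 ± 0.29), Bad (20.0 ± 0.66), Bcl2l1 (8.19 ± 0.065), Bid (6.33 ± 1.1), Bcl2l11 (2.20 ± 0.18), Bcl2 (0.193 ± 0.019) and Pmaip1 (0.0900 ± 0.055). No neighbours in this order overlapped in their DMSO ranges. With rotenone Mcl1 remained first at 46.8, Bax moved from rank 4 to rank 2 at 39.8, ahead of Bak1 at 29.6 and Bbc3 at 28.5, and Pmaip1 at 0.812 passed Bcl2 at 0.705. The order among the 5 most abundant genes depends on the length used: with the longest transcript, Bad (33.3 ± 1.1) and Bax (32.8 ± 0.41) followed Mcl1 with overlapping DMSO ranges, and Bax led with rotenone at 57.1.

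Summed by role, the anti-apoptotic genes gave 43.3, 42.8 and 45.8 CPM per kilobase in DMSO replicates 1, 2 and 3 and 57.9 with rotenone. The effectors gave 50.6, 51.4 and 50.8 and then 69.4. Both sums lay above their DMSO range. The BH3-only genes gave 49.9, 56.6 and 55.6 and then 56.9, a value above all DMSO libraries but within 1 SD (3.62, n = 3) of their mean of 54.0. As a share of the total of these 10 genes, the BH3-only genes held 36.2% ± 1.4 (SD, n = 3) with DMSO and 30.9% with rotenone, the effectors 34.2% ± 0.90 and 37.7%, and the anti-apoptotic genes 29.5% ± 1.0 and 31.4%. This total leaves out other family genes with a role. Among them, Bok stood at 30.7 CPM per kilobase with DMSO and 35.2 with rotenone, and the guardian Bcl2l2 at 13.5 and 9.90. The shares therefore hold for the 10 genes only. Shares are a description of these libraries and were not tested; leaving out Mcl1, the BH3-only genes held 47.6% ± 1.6 (SD, n = 3) and 41.4%.

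**Figure D3:**
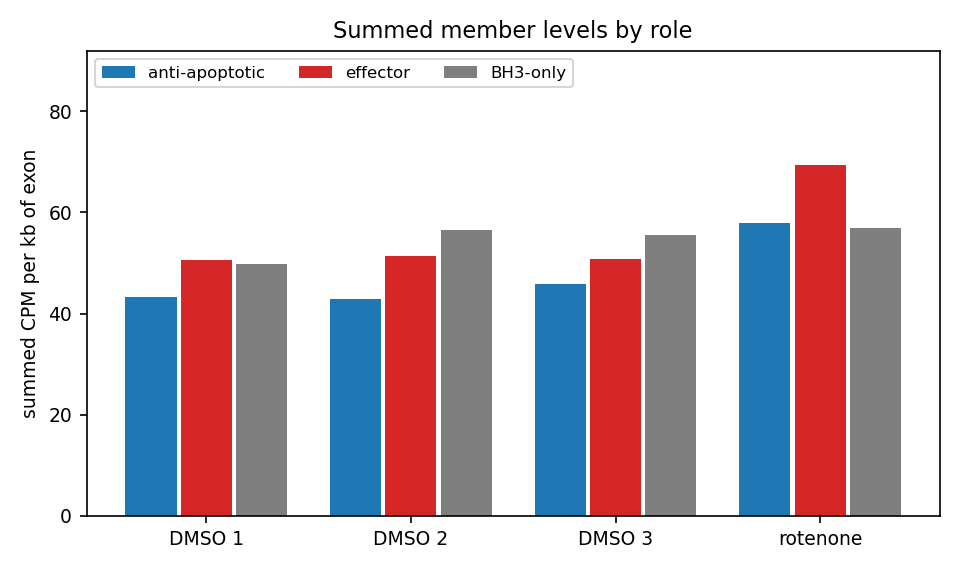
Summed level of the 10 genes by role, in CPM per kilobase of exon, for each DMSO library and the rotenone library (bars from 0). Anti-apoptotic and effector sums are highest in the rotenone library (57.9 and 69.4), while the BH3-only sum of 56.9 is close to that of DMSO replicate 2.

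Other genes of the family and of the pathway were read from lists chosen by function. Of 13 further BCL2 family genes, 10 had a count in any library and 8 were tested, of which 0 were called higher and 2 lower, with a median log2 fold change of -0.18. In the higher direction 2 had an unadjusted p under 0.05 in edgeR (Bok and Bcl2l13), 0 were called by DESeq2 and 1 by limma-voom. The limma-voom call was Hrk, described below, and not Bok or Bcl2l13 (adjusted p = 0.0714 and 0.0954 in limma-voom). Bmf, a BH3-only gene tied to detachment from the matrix, fell by 2.72 ± 0.30 (adjusted p = 3.21e-07), from 7.23, 8.41 and 7.75 CPM in the DMSO libraries to 1.18 CPM, or 24 counts, with rotenone. Like Bcl2l11 it stood far below its DMSO range. Bcl2l2, which encodes the guardian BCL-w, fell by 0.44 ± 0.09 (adjusted p = 0.000308; DMSO mean 60.2 ± 1.5 CPM, SD, n = 3, and 44.2 CPM with rotenone), opposite in sign to Bcl2, Bcl2l1 and Mcl1. Bok, an effector-like gene at 56.4 ± 1.4 CPM (SD, n = 3), gave 0.20 ± 0.08 and did not pass (adjusted p = 0.0501), though it did with median-ratio scaling (0.22, adjusted p = 0.0322); with library size only it stood at 0.079 (adjusted p = 0.440) and with the length and GC correction at 0.050 (adjusted p = 0.607). Bcl2l13, a mitochondrial relative, gave 0.14 ± 0.07 (adjusted p = 0.0782) and passed with median-ratio scaling (0.16), without DMSO replicate 1 (0.17) and with the length and GC correction (0.36), but stood at 0.019 with library size only (adjusted p = 0.819). Bcl2l12 gave 0.08 ± 0.21 and turned in sign with library size only (-0.041) and with that correction (-0.088). With 20% variation assumed, 1 gene of this list was called higher and 1 lower (Bmf). The first was Hrk, with 2, 8 and 0 counts against 12, which reached the filter's cutoff only in the rotenone library. Its call, here and with limma-voom, therefore supports nothing. Without DMSO replicate 1 the number higher was 1, namely Bcl2l13. The 3 Bcl2a1 genes listed, Bcl2a1a, Bcl2a1b and Bcl2a1d, were at 0 in every library, where 3 counts would be 0.101 to 0.148 CPM. The treatment of multi-mapped reads is not given, so a count of 0 need not mean that these genes were silent.

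Downstream of the mitochondria, the cytochrome c gene rose while caspase genes moved both ways. Of 10 genes of the apoptosome and the caspases, 3 were called higher and 5 lower, with a median of -0.40, and 0 were called in either direction with 20% variation assumed. Cycs, which encodes somatic cytochrome c, an electron carrier as well as the trigger of the apoptosome, rose by 0.57 ± 0.06 (adjusted p = 3e-07; DMSO mean 1791 ± 70 CPM, SD, n = 3, and 2657 CPM with rotenone). Casp9, the initiator caspase, fell by 0.41 ± 0.10, whereas Casp2 was called higher (0.30). Dffa, the inhibitor of the apoptotic nuclease, fell by 0.79 ± 0.17 and Casp6 by 0.56 ± 0.11. Apaf1, the scaffold of the apoptosome, gave -0.30 ± 0.13 and did not pass (adjusted p = 0.0526), but passed with upper quartile scaling (-0.35), library size only (-0.42), the filter at 1 CPM (-0.32) and without DMSO replicate 2 (-0.34). After the length and GC correction its difference was close to 0 (-0.0051, adjusted p = 0.976). The number called higher was 1 in place of 3 with DESeq2, with upper quartile scaling, with library size only and without DMSO replicate 2.

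Among 9 factors released from mitochondria and inhibitors of apoptosis (IAPs), 3 were called higher and 4 lower (median 0.11; 1 and 1 with 20% variation assumed). Htra2, a protease released with cytochrome c, rose by 0.84 ± 0.08 (DMSO mean 49.8 ± 1.7 CPM, SD, n = 3, and 89.3 CPM with rotenone), while Diablo, which neutralises IAPs, gave 0.12 ± 0.08 and did not pass (adjusted p = 0.183). Xiap, a direct caspase inhibitor, fell by 0.87 ± 0.08 (DMSO mean 170 ± 9.5 CPM, SD, n = 3, and 92.9 CPM with rotenone). Birc3 fell by 1.59 ± 0.27, from 7.73, 11.6 and 9.13 CPM to 3.15 CPM. Birc5, survivin, which also serves in mitosis, rose by 0.47 ± 0.09, beside the proliferation markers given above.

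Of 9 death receptor genes, 2 were called higher and 4 lower (median -0.06; 1 and 3 with 20% variation assumed). Cflar, which encodes the caspase-8 inhibitor c-FLIP, fell by 1.05 ± 0.08 (adjusted p = 4.35e-09; DMSO mean 85.0 ± 1.2 CPM, SD, n = 3, and 40.9 CPM with rotenone). Fadd, the adaptor that recruits caspase-8, fell by 1.30 ± 0.20, with 12.3, 12.3 and 11.3 CPM in the DMSO libraries and 4.88 CPM with rotenone. Casp8 itself, the protease that activates BID, gave -0.01 ± 0.13 (adjusted p = 0.959), with a sign that turned with median-ratio scaling (0.011) and without DMSO replicate 1 (0.084), and Fas gave 0.22 ± 0.18 (adjusted p = 0.322). Tnfrsf21 had 17 counts with rotenone against 1, 5 and 0 and reached the filter's cutoff only in the rotenone library, so it entered the test through the group where it was high and its place among the genes called higher (also with 20% variation assumed) supports nothing; with DESeq2 it was not called (adjusted p = 0.0511).

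Partners at the outer membrane and of protein stability numbered 14, with 7 called higher and 3 lower (median 0.25; 1 and 1 with 20% variation assumed). Vdac2, the channel through which BAK and BAX reach mitochondria, rose by 0.83 ± 0.06 (adjusted p = 1.38e-09; DMSO mean 294 ± 5.4 CPM, SD, n = 3, and 524 CPM with rotenone). Tmbim6, known as BAX inhibitor 1, rose by 0.67 ± 0.06. Fbxw7 and Huwe1, ubiquitin ligase genes whose products mark MCL1 for destruction, fell by 1.06 ± 0.25 and 0.26 ± 0.07. Usp9x and Btrc are also listed for MCL1 turnover, a label that does not say whether a product speeds or slows it. Usp9x fell by 0.43 ± 0.07 (adjusted p = 6.82e-05), and Btrc gave 0.05 ± 0.11 and did not pass (adjusted p = 0.705). The call for Huwe1 was lost after the length and GC correction (-0.038), with which 1 gene of this list was called lower in place of 3. Fbxw7 and Usp9x therefore did not both stay called with that correction.

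Of 15 genes for transcription factors known to act on the family and their own targets, 14 were tested, 8 called higher and 4 lower (median 0.40; 5 and 1 with 20% variation assumed). Trp53, which encodes p53, an activator of Bax, Bbc3 and Pmaip1, rose by 1.10 ± 0.15 (adjusted p = 0.000524), from 36.9, 50.0 and 48.3 CPM in DMSO replicates 1, 2 and 3 to 96.7 CPM. As for Bid, DMSO replicate 1 was the low library. Of other known p53 targets, Cdkn1a, the cell cycle inhibitor p21, fell by 0.98 ± 0.07 (DMSO mean 360 ± 11 CPM, SD, n = 3, and 182 CPM with rotenone), and Mdm2 gave -0.20 ± 0.10 and did not pass (adjusted p = 0.0999), though it did with upper quartile scaling (-0.24), library size only (-0.32) and without DMSO replicate 2 (-0.26), and stood at -0.16 with the length and GC correction (adjusted p = 0.184). The known p53 targets named in this paragraph differed among themselves: Bax and Pmaip1 rose, Cdkn1a fell, and Bbc3 and Mdm2 did not pass. This tally of p53 targets is not complete.

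Stress-response factors rose, and FOXO factors fell. Ddit3, which encodes CHOP, a factor known to act on Bcl2, Bcl2l11 and Bbc3, rose by 1.26 ± 0.07, from 372, 387 and 425 CPM to 942 CPM. Atf4 rose by 0.63 ± 0.06, Atf3 by 2.83 ± 0.11 and Jun by 1.68 ± 0.07. Foxo1 fell by 0.74 ± 0.09 (DMSO mean 68.0 ± 2.1 CPM, SD, n = 3, and 40.6 CPM with rotenone), and Foxo3 by 0.42 ± 0.08, from 86.1 ± 2.9 CPM to 64.4 CPM. Bcl2l11, a target of both CHOP and FOXO factors, had the sign of the FOXO genes; whether either acted on it was not tested. With 20% variation assumed, Ddit3, Atf3 and Jun were still called and Atf4, Foxo1 and Foxo3 were not.

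**Figure D4:**
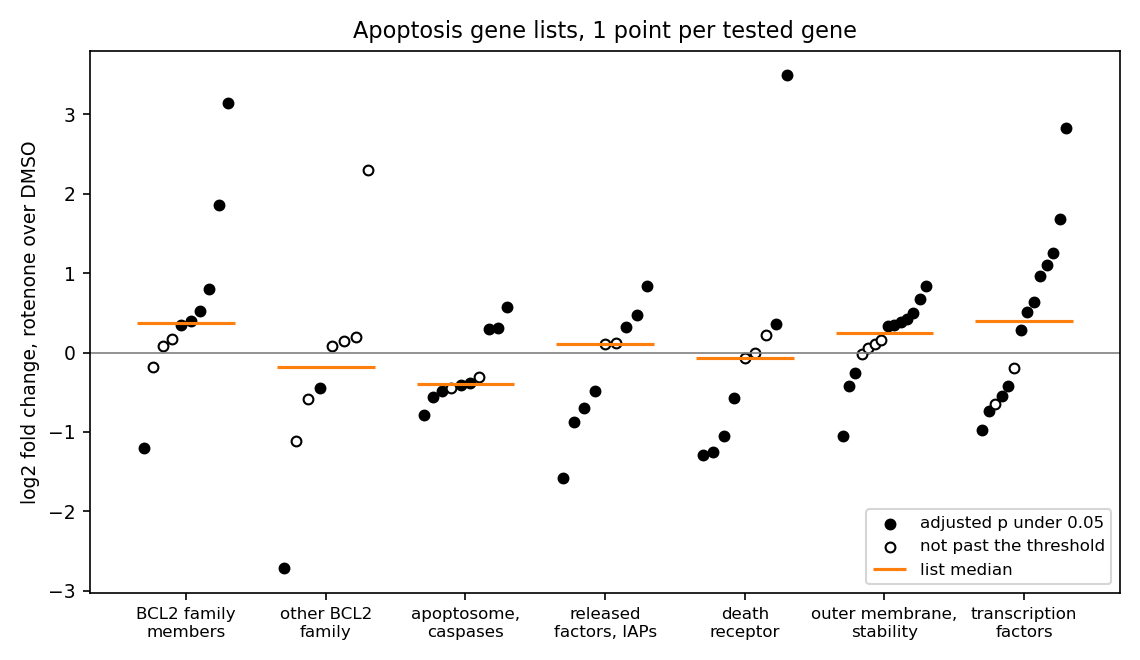
Log2 fold change, rotenone over DMSO, of each tested gene in the BCL2 family set and 6 further apoptosis lists, with filled points for an adjusted p under 0.05, open points for the rest and an orange line for the list median. Medians run from -0.40 for the apoptosome and caspases to 0.40 for the transcription factors, and every list holds genes on both sides of 0.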

How the data were processed

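According to the labels, RNA-seq libraries were made from 3 DMSO and 3 rotenone samples. The deposited files hold raw counts per gene symbol; the submitters' processing notes name TopHat2 and mm10, and the counting program, annotation, strand setting and treatment of multi-mapped reads are not given in these sources. The rotenone files were identical and entered once. Nothing in the labels says that replicates came from separate cultures, so the p-values reflect only how these libraries spread, possibly for technical reasons. Counts were filtered with filterByExpr, scaled by TMM and tested with the robust quasi-likelihood test of edgeR 4.0.16 (R 4.3.3), on 2 residual degrees of freedom, over 14709 genes; the SE is the log2 fold change divided by the square root of F. The text names all 10 BCL2 family genes, the fixed pathway genes (some are not reported here) and up to 2 further genes per pathway list with the largest called changes. Casp2, Hrk, Usp9x, Btrc, Cd68, Eng, Lyz2, Bcl2a1a, Bcl2a1b, Bcl2a1d and genes overlapping a family gene were named after their values were seen. The promoter stretches were also chosen after values were seen. The genes and lists were chosen with earlier results of these data known. Alternatives were other scalings and filters, DESeq2 1.42.0, limma-voom (limma 3.58.1), a test against a 1.5-fold change, an adjusted p of 0.01, an assumed coefficient of variation of 20%, leaving out each DMSO library, and a correction by length and GC content of the longest transcript in 8 by 8 bins (14190 genes with both). Scripts were tested on simulated data. Positions and lengths are from GENCODE M21 (GRCm38), and promoter windows from RefSeq on GRCm38.p6; the Pmaip1 window was not used here.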

Additional observations from a re-analysis of the deposited data

How the results depend on the processing

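No paired analysis was possible because the rotenone files are 1 library, so the replicate numbers shared by the labels pair nothing. Leaving out any DMSO library changed the call of none of the 10 BCL2 family genes. Without DMSO replicate 2, however, Pmaip1 had only 4 and 5 counts in DMSO replicates 1 and 3, below the filter's cutoff. It then entered the test only through the rotenone library, where it was high, so its call in that fit supports nothing. Of all genes, 1408 were called higher and 2063 lower with a coefficient of variation of 20% assumed, and 1203 and 1731 in the test against a 1.5-fold change, where 4054 and 4197 were called in the fit reported. Members called higher numbered 2 with 20% assumed and 3 against a 1.5-fold change; 2 were called lower with upper quartile scaling, library size only and the length and GC correction, the second being Bad (-0.23, -0.31 and -0.35). Calls lost with 20% assumed were those of Bcl2l1 (0.35), Mcl1 (0.39), Bax (0.80) and Bid (0.52); those of Bcl2l1 (0.35), Mcl1 (0.39) and Bid (0.52) were lost against a 1.5-fold change, and that of Bcl2l1 with library size only (0.23). Signs turned for Bak1 (-0.041 with library size only, -0.037 with the length and GC correction), for Bcl2l12 (-0.041 and -0.088 with the same alternatives) and for Casp8 (0.011 with median-ratio scaling and with DESeq2), none of them called. Without 1 DMSO library Casp8 ranged from -0.091 to 0.084. With the longest transcript as the length, role shares among the 10 genes were 26.9% and 28.6% for anti-apoptotic, 40.5% and 33.8% for BH3-only and 32.6% and 37.5% for effector genes, with DMSO and rotenone. The cause was not tested. With library size only, the median change over all genes was -0.16 in place of -0.04. At 4 to 12 counts with DMSO, depth limits the size given for Pmaip1.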
